A study of Rattus norvegicus with 20 samples.

Results

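Cortical neurons that the labels call non-sprouting were compared between day 21 and day 7 in aged rats with a stroke. On each of the 20 arrays with 2 colours of the series only the channel that carried non-sprouting neurons was used: the green channel (Cy3) on the 10 forward arrays and the red channel (Cy5) on the 10 dye-swap arrays. These 20 channels of 40 came from 10 rats, each with 1 forward and 1 dye-swap array of the same RNA pair. The mean of both dyes gave 1 level per animal, so there were 5 animals at day 7 and 5 other animals at day 21.

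All 10 rats were 2 years old and, as the labels describe it, had neurons captured after a stroke. In both groups a first cholera toxin B tracer (Alexa 488) was injected into the cortex bordering the infarct, and another (Alexa 647) later into the very same site. The time between the injections, 7 days or 21 days in separate cohorts, names the groups, and laser capture followed 7 days after the second injection in both. About 300 neurons of each cell type were pooled per animal, and their RNA went through 2 rounds of T7 amplification before dye labelling. No animal without a stroke is among the samples analysed here, and both groups share the infarct, the tracers and the age. A signal from a captured pool also cannot separate fewer cells of a type from less RNA per cell.

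Neurons next to an infarct receive altered input, inflammatory signals and growth-related cues for weeks after the injury. Immediate early genes, such as the Egr family, Fos and Arc, are transcribed within minutes of synaptic activity or growth factor signalling and mostly encode transcription factors or synaptic regulators. Microglia and blood-borne macrophages take up debris in the same tissue, and astrocytes and oligodendrocytes lie so close to neuronal cell bodies that their RNA can enter a laser-captured sample.

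Neuronal markers gave signal in every animal: each of the 17 pan-neuronal markers measured was above background in all 10 animals. Rbfox3, which encodes the neuronal nuclear antigen NeuN, and Snap25, a protein of the vesicle fusion machinery, were well above background on all 20 arrays. Glial markers gave signal too. Of 21 astrocyte markers 18 to 21 were above background per animal, of 20 oligodendrocyte markers 17 to 20, and of 26 microglial and macrophage markers 21 to 26. Only probes well above background in at least 3 animals of 1 day entered the test, so high counts were partly fixed in advance. Of all gene spots, 51.5% to 95.5% were well above background per array.

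Some animals stood apart from the rest before any comparison. The first principal component held 62.8% of the variance, and day 21 replicates 4 and 5 lay at 64.0 and 144 on it, while the other 8 animals lay between -31.4 and -16.7. These were both animals of the last scan batch. Day 7 replicate 2 had the smallest share of spots well above background, 51.5% on its forward array against up to 95.5% elsewhere, and 1895 outlier spots there. The scan date recorded in the array files defined 5 scan batches: the first held day 7 replicate 1, the second day 7 replicates 2 and 3, the third day 7 replicates 4 and 5 with day 21 replicate 1, the fourth day 21 replicates 2 and 3, and the fifth day 21 replicates 4 and 5. Scan date and day are therefore confounded, and they can be told apart only within the third batch, where 1 animal met 2.

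Across the transcriptome no gene passed the test against the spread between animals. Of 30344 features tested with limma's moderated test, 0 (0%) had an adjusted p of 0.05 or less and the smallest adjusted p was 0.131 (Benjamini-Hochberg, n = 5 animals per day). An unadjusted p under 0.05 was reached by 4772 features (15.7%), of which 1490 (4.91%) were higher and 3282 (10.8%) lower at day 21. Over all features 18063 (59.5%) had a difference below 0. The levels of both days did not overlap for 1626 features (5.36%), of which 412 were higher at day 21 (1.36%) and 1214 lower (4%). For such a feature a 2-sided exact permutation test of 5 against 5 animals gives p = 0.00794, the smallest it can reach. The median difference over all features was -0.07 on the log2 scale, and every list below is read beside that value.

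That count of 0 depended on which animals were used and how they were weighted. With array weights, which gave day 21 replicates 4 and 5 weights of 0.195 and 0.0794 where day 7 replicate 4 had 3.08, limma called 629 features higher (2.07%) and 1573 lower (5.18%). Leaving out day 21 replicate 1 gave 597 calls. That animal was the only one of day 21 scanned with day 7 animals, so without it no scan batch held both days. Day and scan date could then not be told apart at all. Scan batch as a fixed block gave 0 calls with 393 features at an unadjusted p under 0.05. Scaling each array to its 75th percentile in place of quantile normalization turned the split at an unadjusted p under 0.05 from 1490 higher and 3282 lower to 1884 higher and 1483 lower. The genes named below are therefore described by their values, and none of them passed the test across all 10 animals.

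Immediate early genes had the highest median of the 34 gene lists. All lists and their members were chosen with earlier results of these data known, so ranks among the lists are descriptions only. Of 28 measured genes 20 were higher and 8 lower at day 21, with a median difference of 0.38. None passed the adjusted test. At an unadjusted p under 0.05 7 of 28 were higher, against 4.91% of all features, and 4 of 28 lower, against 10.8%. Without overlap between the days 3 were higher, against 1.36%, and 1 lower, against 4%. The median was above 0 in each of the 30 alternatives, from 0.19 without day 7 replicate 2 to 0.47 without the last scan batch, and it was 0.41 within the third scan batch. These alternatives reuse the same animals. Day 21 replicate 4 had the lowest list level of all animals, at -0.33.

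Egr1 and Egr2, zinc finger transcription factors of the Egr family, had the smallest p-values of the list. The level of Egr1 (log2 intensity) was 12.64, 12.25, 12.70, 13.15 and 13.39 in day 7 replicates 1 to 5 and 13.80, 13.75, 13.99, 14.11 and 13.56 in day 21 replicates 1 to 5. All 5 animals of day 21 lay above all 5 of day 7, and the highest day 7 animals were those of the third scan batch. The difference was 1.02 ± 0.21 (SE, n = 5 per day), or 2.02-fold, with an adjusted p of 0.131. Within the third scan batch it was 0.53, and with 75th percentile scaling 0.65.

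Egr2, known in neurons and in myelinating Schwann cells, lay at 8.15, 8.87, 8.16, 8.10 and 9.67 at day 7 and at 10.35, 9.64, 9.64, 9.92 and 9.84 at day 21. Day 7 replicate 5 reached into the day 21 range and the other 4 animals of day 7 lay below it. The difference was 1.29 ± 0.30 (SE), or 2.44-fold, with an adjusted p of 0.139. Egr4 lay at 11.92, 11.33, 12.07, 12.15 and 12.40 at day 7 and at 13.13, 12.47, 12.61, 12.60 and 12.78 at day 21. Its days did not overlap, with a difference of 0.74 ± 0.20 (SE) and an adjusted p of 0.166. With 75th percentile scaling Egr2 differed by 1.25 and Egr4 by 0.39.

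Egr3, the fourth member, ran the other way. Its levels were 7.59, 7.58, 7.64, 7.62 and 7.88 at day 7 and 7.47, 6.97, 7.40, 6.85 and 6.89 at day 21, with no overlap. The difference was -0.55 ± 0.15 (SE, adjusted p = 0.167). Fosb and Fosl2, partners of Jun proteins in the AP-1 factor, were also lower at day 21, by -0.36 and -0.42 on the log2 scale (unadjusted p = 0.0135 and 0.0298). The probes of Egr3, Fosb and Fosl2 were dim, with levels of 6.57 to 8.16.

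Fos, the founding member of AP-1, was the gene with the largest difference in the list. It lay at 6.79, 6.88, 6.59, 6.54 and 6.79 at day 7 and at 7.52, 7.69, 7.68, 8.05 and 9.67 at day 21. Every animal of day 21 was above every animal of day 7, and day 21 replicate 5 was far above the other 4. The difference was 1.40 ± 0.36 (SE), or 2.65-fold, with an adjusted p of 0.152. Without the last scan batch it was 0.91, and without the 3 animals that stood apart Fos was 1 of 6 features that limma called, at 0.95 with an adjusted p of 0.0264. Its signal was well above background on 7 of 10 arrays at day 7 and 9 of 10 at day 21, and the offset of 50 added in background correction makes folds of dim probes smaller.

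Arc, Nr4a3, Dusp6, Nr4a1 and Homer1 were higher with overlap between the days. Arc, which regulates AMPA receptor trafficking, lay at 10.54, 9.27, 10.27, 9.72 and 10.67 at day 7 and at 11.45, 10.99, 10.78, 10.01 and 11.50 at day 21. Day 21 replicate 4 lay inside the day 7 range and the other 4 lay above it. The difference was 0.85 ± 0.34 (SE, adjusted p = 0.272). Nr4a3, an orphan nuclear receptor, differed by 0.62 ± 0.19 (adjusted p = 0.194), and Dusp6, a phosphatase that inactivates ERK, by 0.66 ± 0.24 (adjusted p = 0.237). Nr4a1 differed by 0.80 and Homer1, a postsynaptic scaffold, by 0.43, both with an unadjusted p above 0.05. With 75th percentile scaling Arc, Nr4a3, Dusp6, Nr4a1 and Homer1 differed by less, at 0.61, 0.28, 0.31, 0.65 and 0.09.

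The remaining members spread on both sides of 0. Btg2, Arl4d, Nptx2, Ccn1, Ier2 and Vgf had differences of 0.63, 0.64, 0.51, 0.41, 0.38 and 0.37. With 75th percentile scaling these were 0.56, 0.57, 0.74, 0.50, 0.19 and 0.03. Bdnf, the neurotrophin whose transcript follows activity, differed by 0.25, Nr4a2 by 0.19, Jun by 0.14 (-0.21 with 75th percentile scaling), Dusp1 by 0.09 and Sik1 by 0.08. Jund, Klf4 (0.03 with 75th percentile scaling, 0.06 with loess), Rgs2 and Ptgs2 differed by -0.03, -0.05, -0.08 and -0.22. Per1, a clock gene, differed by -0.30 with an unadjusted p of 0.0475. Within the third scan batch Arl4d, Klf4, Rgs2, Ptgs2 and Per1 had the other sign, at -0.25, 0.38, 0.33, 0.46 and 0.08.

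**Figure D1:**
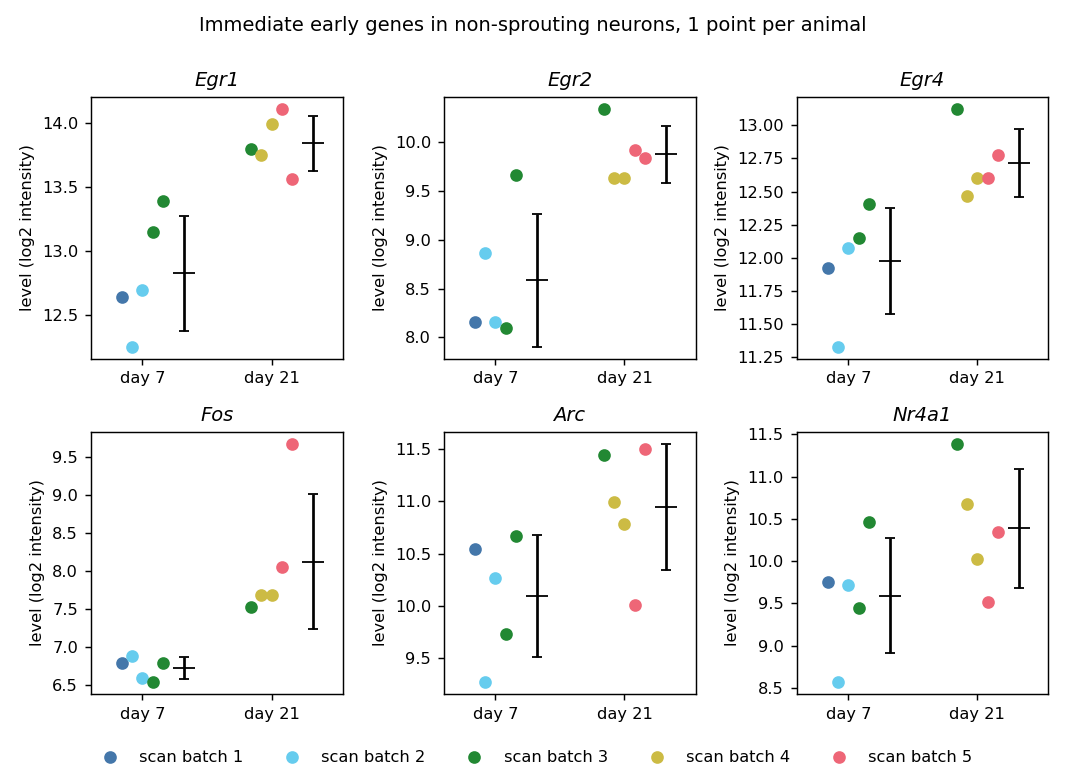
Levels of 6 immediate early genes in non-sprouting neurons (log2 intensity, y axis) by day (x axis), 1 point per animal coloured by scan batch, with the mean and SD of 5 animals as a bar. For Egr1, Egr4 and Fos the days do not overlap, and for Egr2, Arc and Nr4a1 they do.

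The bases before the start sites of Egr1, Egr2 and Egr4 are shown because these 3 family members were higher at day 21 together. The sequences are from RefSeq (GRCr8 assembly), on the gene's own strand, 250 bases ending just before the annotated start. Capitals mark matches to the CArG box, the element bound by serum response factor, and to TGACG on either strand, the core of the cyclic AMP response element. TGACG was added to the search after the sequences had been looked at.
Egr1, chr18:26736828-26737077, plus strand: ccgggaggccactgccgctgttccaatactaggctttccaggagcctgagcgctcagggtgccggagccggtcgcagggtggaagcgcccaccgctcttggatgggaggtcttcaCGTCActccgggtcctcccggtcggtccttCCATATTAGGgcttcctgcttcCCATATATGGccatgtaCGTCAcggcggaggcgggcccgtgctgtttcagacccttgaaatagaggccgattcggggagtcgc
Egr2, chr20:21054442-21054691, minus strand: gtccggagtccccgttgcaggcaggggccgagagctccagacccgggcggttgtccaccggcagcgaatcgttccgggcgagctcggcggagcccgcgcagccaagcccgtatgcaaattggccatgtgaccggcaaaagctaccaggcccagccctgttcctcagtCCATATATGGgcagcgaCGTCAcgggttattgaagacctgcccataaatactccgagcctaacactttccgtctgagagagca
Egr4, chr4:119607818-119608067, minus strand: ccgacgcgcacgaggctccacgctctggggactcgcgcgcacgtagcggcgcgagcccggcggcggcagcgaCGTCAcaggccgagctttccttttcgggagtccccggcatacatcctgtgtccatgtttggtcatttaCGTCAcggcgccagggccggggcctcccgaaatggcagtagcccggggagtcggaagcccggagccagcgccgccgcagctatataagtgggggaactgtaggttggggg

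Egr1 held 2 CArG boxes and 2 TGACG matches in this window, Egr2 1 of each, and Egr4 2 TGACG matches and no CArG box. Of the 31 genes of the list 26 had a usable entry in the promoter table. Fos, Jun, Egr3, Arc and Nr4a3 had none, so Egr3 could not be set beside Egr1, Egr2 and Egr4. TGACG was found in 16 of the 26 with an entry (61.5%) against 18.2% of all 33469 windows of the same length. The full element TGACGTCA, which contains TGACG, was found in 6 (23.1%) against 1.59%. A CArG box was found in 2 of 26 (7.69%) against 1.5%. The windows were not matched for base composition, and the list also holds genes that were lower at day 21. Since TGACG was searched for after these sequences had been looked at, its share is a description only. A match is a stretch of letters only, and whether any factor bound there was not tested.

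Beyond the immediate early genes, the 14 genes reported with the smallest p-values among those higher at day 21 had differences of 0.38 to 2.18. They were chosen as genes with no overlap between days and the same sign in both dyes and within the third scan batch. Lingo1, a Nogo receptor partner that limits axon growth and myelination, lay at 7.24, 7.01, 7.35, 7.33 and 7.16 at day 7 and at 7.75, 7.80, 7.66, 7.76 and 7.84 at day 21. The 5 animals of day 21 lay close together and above the whole day 7 group. The difference was 0.55 ± 0.10 (SE, adjusted p = 0.131), with 0.51 within the third scan batch.

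Marcksl1, a MARCKS-like regulator of actin, had the largest difference of these 14. Its levels were 10.31, 9.64, 10.99, 11.37 and 12.04 at day 7 and 12.12, 13.40, 12.14, 13.32 and 14.24 at day 21. The groups met at 12.04 and 12.12, and both animals of the last scan batch were among the 3 highest. The difference was 2.18 ± 0.51 (SE, adjusted p = 0.139), 1.68 without the last scan batch and 0.42 within the third scan batch. Marcks itself ran the other way, at -0.66 ± 0.30 (SE, adjusted p = 0.318), but at -0.21 without the last scan batch and -0.16 within the third.

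Among the other genes of the 14, Csrp1, a LIM-domain protein of the actin cytoskeleton, differed by 0.89 ± 0.22, and Rassf1, a Ras-association protein that binds microtubules, by 1.08 ± 0.23. Flrt2, a cell adhesion and repulsive guidance protein, differed by 0.57 ± 0.13, and Mcf2, a guanine nucleotide exchange factor, by 0.38 ± 0.09. Differences of the rest were smaller than 1, with Nfyc, a subunit of the CCAAT-binding factor NF-Y (0.58), Zfp189, a zinc finger protein (0.95), Zc3h13, part of the RNA methylation machinery (0.65), Usp38, a deubiquitinase (0.53), and Rnf145, a ubiquitin ligase of the endoplasmic reticulum (0.53). Nipal2 (0.68) and Phf8l (0.60) complete the 14 with Egr1. Their adjusted p-values lay between 0.131 and 0.147 with equal weights and between 0.0131 and 0.0385 with array weights. With scan batch as a fixed block none of the 14 passed. Nipal2 and Nfyc each had another probe, with differences of 0.09 and -0.01.

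The 15 genes lower at day 21, chosen in the same way, had differences of -1.23 to -0.55. Marchf6, a ubiquitin ligase of the endoplasmic reticulum, lay at 9.17, 9.16, 9.18, 9.19 and 9.58 at day 7 and at 8.80, 8.27, 8.35, 8.10 and 8.24 at day 21. The days did not overlap, and day 21 replicate 1, scanned with 2 of the day 7 animals, was nearest to day 7. The difference was -0.90 ± 0.15 (SE, adjusted p = 0.131) over all animals and -0.58 within the third scan batch.

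Foxj3, a forkhead transcription factor, was the lowest of the 15. It lay at 8.65, 8.87, 8.96, 9.07 and 9.47 at day 7 and at 8.57, 7.80, 7.76, 7.33 and 7.39 at day 21. Day 21 replicate 1 again lay just under the day 7 range. The difference was -1.23 ± 0.24 (SE, adjusted p = 0.131). Ccn4, a matricellular Wnt target, differed by -1.08 ± 0.20, Npbwr1, a neuropeptide receptor, by -0.91 ± 0.18, and Rnf150 by -0.89 ± 0.17.

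Srsf6, a splicing factor of the SR family, had the narrowest day 21 group. Its levels were 8.81, 9.001, 8.75, 8.91 and 9.14 at day 7 and 8.37, 8.36, 8.37, 8.32 and 8.24 at day 21. The gap between the groups was wider than the whole day 21 range. The difference was -0.59 ± 0.10 (SE, adjusted p = 0.131) and -0.66 within the third scan batch.

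Artn, the GDNF-family ligand artemin that supports neurite growth, lay at 7.62, 7.69, 7.60, 7.67 and 7.73 at day 7 and at 7.32, 7.03, 6.98, 6.76 and 6.73 at day 21, a difference of -0.69 ± 0.13. Nqo1, a quinone reductase controlled by the oxidative stress factor Nrf2, lay at 7.72, 7.95, 7.75, 7.71 and 7.79 at day 7 and at 7.34, 6.98, 7.34, 6.89 and 7.02 at day 21, a difference of -0.67 ± 0.12. Neither gene's days overlapped, and both adjusted p-values were 0.131. The others were Eddm3b (-0.86), Scgb1a1, a secretoglobin (-0.64), Parp6, a mono-ADP-ribosyltransferase (-0.64), Atp13a1, a P5-type ATPase of the endoplasmic reticulum (-0.63), Rln3, the neuropeptide relaxin-3 (-0.57), Aass, an enzyme of lysine breakdown (-0.56), and Nkx2-8, a homeobox factor (-0.55). Several of these, such as Scgb1a1 and Nkx2-8, are best known outside the cortex, and their probes were dim, with levels of 6.55 to 7.68. With array weights the adjusted p of the 15 lay between 0.0107 and 0.0134, and none of them passed with scan batch as a fixed block. Other probes of Marchf6, Artn, Parp6 and Atp13a1 differed by -0.20, -0.04, -0.20 and -0.20, less than the probe used.

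**Figure D2:**
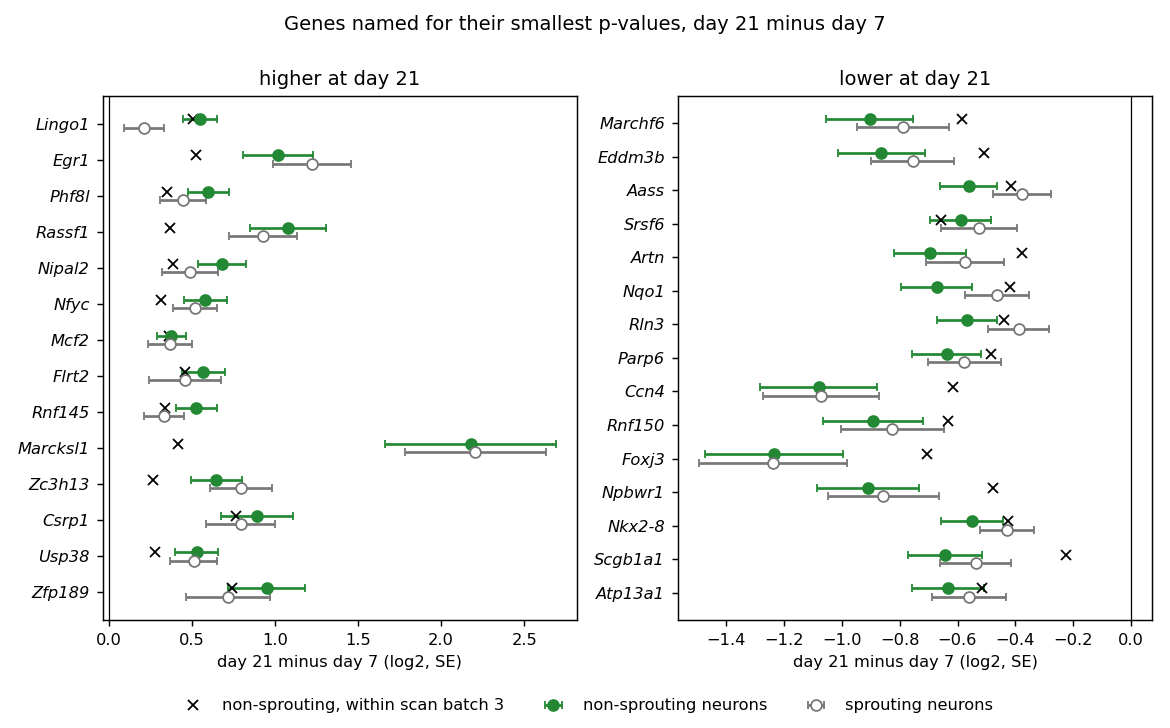
Day 21 minus day 7 (log2, x axis) for the 14 genes named as higher and the 15 named as lower, with SE over 5 animals per day, in non-sprouting neurons (filled) and in sprouting neurons of the same animals (open). Crosses give the difference within scan batch 3, where it is nearer to 0 for 28 of the 29 genes.

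Microglial and macrophage markers had the lowest median of all lists. Of 26 measured markers 23 were lower at day 21 and 3 higher, with a median of -0.49, and 0 passed the adjusted test. At an unadjusted p under 0.05 5 were lower and 0 higher, and 2 were lower without overlap, against 10.8% and 4% of all features. The level of the whole list ranged from -0.28 to 1.11 in day 7 animals and from -0.43 to -0.07 in day 21 animals. Day 7 replicate 1 was at 1.11 and replicate 2 at 0.35, while the other 3 lay inside the day 21 range. Without day 7 replicate 1 the median was -0.15, and within the third scan batch -0.18.

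Cd68, a lysosomal protein of phagocytic cells, lay at 11.80, 11.08, 10.78, 11.08 and 11.46 at day 7 and at 10.33, 10.62, 10.28, 9.97 and 10.40 at day 21. All day 7 animals were above all day 21 animals. The difference was -0.92 ± 0.20 (SE, adjusted p = 0.131), and it was -0.95 within the third scan batch. Tmem119, a marker of resident microglia, also had no overlap, at -0.37 ± 0.11 (adjusted p = 0.191), and Cx3cr1, the fractalkine receptor, differed by -0.60 ± 0.20 (adjusted p = 0.215).

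The other defining markers rested on 1 or 2 animals. Itgam, the integrin CD11b, lay at 9.13, 7.35, 7.14, 6.65 and 6.95 at day 7 and at 6.46, 6.67, 7.00, 6.37 and 6.24 at day 21. Aif1, which encodes Iba1, lay at 12.38, 11.44, 10.44, 10.13 and 10.39 at day 7 and at 10.005, 10.55, 10.28, 9.83 and 10.36 at day 21. Day 7 replicate 1 was the highest animal for both genes, and the other levels of the days overlapped. Their differences were -0.90 ± 0.40 and -0.75 ± 0.39 (SE, adjusted p = 0.316 and 0.364).

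Genes of the interferon response and antigen presentation were highest in the same animals. Of 31 measured 26 were lower at day 21, with a median of -0.43, and 6 of the 31 were lower at an unadjusted p under 0.05, against 10.8% of all features. The list level was highest in day 7 replicates 1 and 2, at 0.46 and 0.23, and lowest in day 21 replicate 5, at -0.54. The median was -0.08 without day 7 replicate 1 and -0.01 within the third scan batch. Mx2, an interferon-induced GTPase, differed by -0.76 ± 0.22 without overlap (adjusted p = 0.175), and Tapbp, the chaperone tapasin of class I antigen loading, by -0.45 ± 0.16 (adjusted p = 0.225). Cxcl10, an interferon-induced chemokine, differed by -0.91 ± 0.30 (adjusted p = 0.211) and was well above background on 9 of 10 arrays at day 7 but only 3 of 10 at day 21. The part that microglial RNA in the captured pools had in these differences was not tested.

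Astrocyte and oligodendrocyte markers were lower as well. Of 21 astrocyte markers 16 were lower and 5 higher, with a median of -0.28 that stayed below 0 in each of 30 alternatives and was -0.10 within the third scan batch. At an unadjusted p under 0.05 8 were lower and 0 higher, against 10.8% and 4.91% of all features. The list level ranged from 0.03 to 0.31 in day 7 animals and from -0.40 to 0.02 in day 21 animals, without overlap. Gja1, the gap junction protein connexin 43, lay at 12.93, 13.15, 13.08, 13.11 and 12.84 at day 7 and at 12.86, 12.69, 12.43, 12.56 and 12.71 at day 21. Only day 21 replicate 1 reached the day 7 range. The difference was -0.37 ± 0.12 (SE, adjusted p = 0.196), while a dimmer probe of the gene gave 0.21. Aldh1l1, a folate enzyme of astrocytes, differed by -0.33 ± 0.10 without overlap, and Cxcl14, a chemokine, by -0.44 ± 0.13.

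Gfap and Aqp4 had wider errors than these 3 genes. Gfap, the intermediate filament of astrocytes, lay at 7.61, 8.76, 6.84, 6.78 and 7.07 at day 7 and at 7.15, 7.29, 7.30, 6.73 and 6.59 at day 21, with a difference of -0.40 ± 0.35 that was 0.23 within the third scan batch. Aqp4, the water channel of astrocyte endfeet, lay at 6.89, 8.40, 6.55, 6.73 and 6.55 at day 7 and at 6.57, 7.20, 6.73, 8.43 and 9.10009 at day 21, with a difference of 0.58 ± 0.53 that was -0.07 within the third scan batch. Day 7 replicate 2 was high for both, and the groups overlapped widely.

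Of 20 oligodendrocyte markers 18 were lower and 2 higher, with a median of -0.23, which was -0.12 without the last scan batch and 0.02 with array weights. Mog, a surface protein of myelin, differed by -0.58 ± 0.16 (adjusted p = 0.172). Sox10 and Olig2, transcription factors of the lineage, each differed by -0.49 (adjusted p = 0.275 and 0.259), and Olig2 was at 0.24 within the third scan batch. Mbp, myelin basic protein, lay at 10.62, 11.86, 9.31, 9.62 and 9.50 at day 7 and at 9.68, 10.12, 10.43, 10.25 and 8.74 at day 21, so its groups overlapped, with a difference of -0.34 ± 0.50.

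Endothelial and pericyte markers had a median of -0.14 (17 of 22 lower), which was -0.03 without the last scan batch. Slc2a1, the glucose transporter of brain endothelium, differed by -0.73 ± 0.22 without overlap but by -0.02 within the third scan batch. Tek, the angiopoietin receptor, differed by 0.73 ± 0.24, Rgs5, a pericyte marker, by -0.33 ± 0.11, and Cldn5, a tight junction protein, by -0.32 ± 0.26. The 10 blood cell markers had a median of -0.14 (6 lower), with Np4, a neutrophil defensin, at -0.71 ± 0.20, Mpo, myeloperoxidase, at -0.26 ± 0.10, and S100a9, a calcium-binding protein of neutrophils, at 0.46 ± 0.19.

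**Figure D3:**
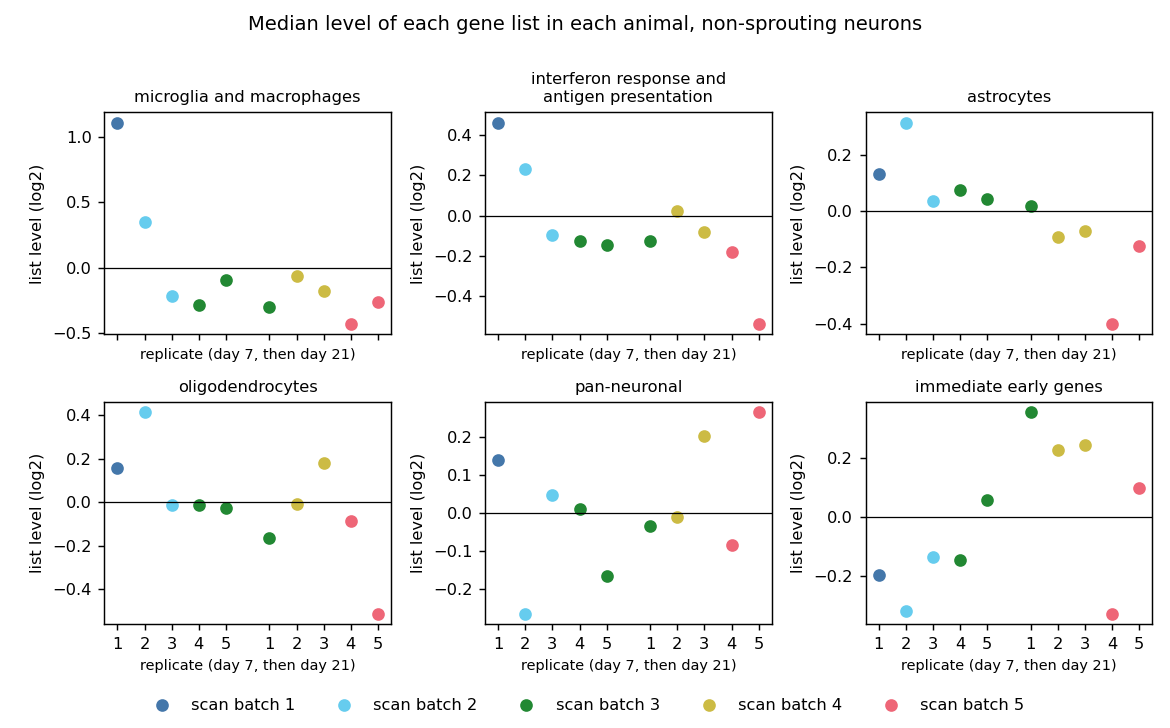
Level of 6 gene lists in each animal (median over the list of log2 level minus the gene's mean, y axis), by replicate within day 7 and day 21 (x axis), coloured by scan batch. Microglial and interferon lists are highest in day 7 replicates 1 and 2, and the immediate early list is above 0 in day 21 replicates 1, 2, 3 and 5 and in day 7 replicate 5, and lowest in day 21 replicate 4 at -0.33.

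Of 17 pan-neuronal genes 11 were higher and 6 lower, with a median of 0.07 beside -0.07 for all features, which turned to -0.09 with 75th percentile scaling. Rbfox3 lay at 11.29, 10.78, 11.58, 11.53 and 11.16 at day 7 and at 10.91, 11.29, 10.99, 11.26 and 12.23 at day 21, and its difference of 0.07 ± 0.25 was -0.20 without the last scan batch and -0.29 with 75th percentile scaling. Snap25 lay at 15.49, 15.25, 15.22, 15.06 and 14.94 at day 7 and at 14.88, 14.95, 15.35, 15.41 and 12.89 at day 21. Day 21 replicate 5 was far below the other animals for Snap25, and it was the highest animal for Rbfox3. Uchl1, a neuronal deubiquitinase, differed by 0.30 ± 0.13 (-0.01 with 75th percentile scaling), and Syp, synaptophysin, by 0.28 ± 0.16 (adjusted p = 0.307 and 0.385). Syt1, the calcium sensor of vesicle release, was at 12.99 in day 21 replicate 5 and between 8.23 and 10.23 in the other 9 animals, and its other probes differed by 0.63 and -0.29.

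Markers of neuron subtypes gave small medians. The 9 glutamatergic markers had a median of 0.18, which was 0.04 without the last scan batch. Sv2b, a synaptic vesicle protein, differed by 1.10 ± 0.34 over all animals and by -0.27 within the third scan batch, and its other probe differed by -0.10. Slc17a6, vesicular glutamate transporter 2, differed by -0.75 ± 0.32, Slc17a7, transporter 1, by 0.37 ± 0.27, and Arpp21, a cyclic AMP-regulated phosphoprotein, by 0.34 ± 0.23. With 75th percentile scaling Arpp21 was at -0.0063, and its other probes differed by -0.29 and 0.09. The median over 14 upper layer markers was -0.03 (6 higher, with Inhba at 0.58 ± 0.35 and Mdga1 at 0.63 ± 0.41), and it was 0.21 without the last scan batch. The median over 15 deep layer markers was 0.10 (9 higher), and it was -0.11 within the third scan batch and -0.16 with 75th percentile scaling.

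Among the deep layer markers Ntsr1, the neurotensin receptor of corticothalamic cells, differed by -0.43 ± 0.13 without overlap (adjusted p = 0.179). Ldb2, of layer 5 projection neurons, differed by 0.72 ± 0.32 and Ccn2, of layer 6b, by -0.85 ± 0.49. The 21 interneuron markers had a median of 0.10 (13 higher), -0.04 with 75th percentile scaling. Dlx1, a transcription factor of the interneuron lineage, lay at 8.26, 8.30, 8.23, 8.18 and 8.08 at day 7 and at 7.73, 7.67, 7.80, 6.92 and 7.06 at day 21, without overlap, and differed by -0.78 ± 0.18 (adjusted p = 0.139). Pvalb, parvalbumin, differed by 0.36 ± 0.17 (-0.0086 with 75th percentile scaling), Reln, reelin, by 0.53 ± 0.27 (-0.30 for its other probe), and Gad1, which makes GABA, by 0.08 ± 0.26.

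Transmitter receptors included genes in both directions. Of 31 glutamate receptor genes 18 were higher, with a median of 0.04. Grin1, the obligatory NMDA receptor subunit, lay at 10.34, 9.80, 10.25, 10.08 and 10.20 at day 7 and at 9.76, 9.68, 9.48, 8.54 and 9.61 at day 21. No day 21 animal reached the day 7 range, although day 7 replicate 2 and day 21 replicate 1 were close. The difference was -0.72 ± 0.23 (SE, adjusted p = 0.196). Grin2a, a regulatory NMDA subunit, differed by 0.90 ± 0.38 and Gria1, an AMPA receptor subunit, by 0.81 ± 0.28, both with overlap (adjusted p = 0.289 and 0.225). Another Grin2a probe differed by -0.02.

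The 22 genes of GABA receptors and handling had a median of -0.0047 with 11 on each side. Gabrg3 and Gabrg1, both gamma subunits of the GABA-A receptor, differed by -0.61 ± 0.20 and 0.65 ± 0.33, and Abat, which breaks GABA down, by 0.61 ± 0.30. Gabrg1 was at -0.14 within the third scan batch. The 48 genes of presynaptic release had a median of 0.01 (24 higher). Pclo, the active zone scaffold piccolo, differed by 0.69 ± 0.23 and Rims2, which docks vesicles at the active zone, by 0.36 ± 0.13 (adjusted p = 0.211 and 0.250).

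Among voltage-gated channels, Hcn3 had the smallest p. This hyperpolarization-activated channel lay at 7.99, 7.79, 7.84, 7.82 and 7.88 at day 7 and at 7.43, 7.16, 7.51, 7.21 and 7.39 at day 21. The days did not overlap. The difference was -0.52 ± 0.10 (SE, adjusted p = 0.131), and -0.42 within the third scan batch. Cacna1e, the R-type calcium channel, differed by -1.21 ± 0.34 over all animals and by -0.22 within the third scan batch, with other probes at -0.03 and -0.08, and Cacna1h, a T-type channel, by -0.42 ± 0.14. The 27 sodium and calcium channel genes had a median of -0.11 (16 lower). The 47 potassium channel genes had a median of -0.02 (25 lower), with Kcnk9, a leak channel, at -0.67 ± 0.23 and Kcna5, a delayed rectifier, at 0.81 ± 0.28.

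Growth-related lists had medians from -0.09 to 0.08, beside -0.07 for all features. The 33 regeneration-associated genes, known from injured peripheral neurons, had a median of 0.01 (17 higher, 16 lower), which was -0.05 with 75th percentile scaling. At an unadjusted p under 0.05 only 1 of 33 was higher, against 4.91% of all features. That gene was Klf7, a growth-promoting transcription factor, at 1.12 ± 0.41 (adjusted p = 0.250), which was 0.54 without the last scan batch. Sox11, a transcription factor of growing neurons, differed by -0.33 ± 0.16.

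The 22 genes of axon growth inhibition had a median of 0.08 (13 higher), and Lingo1 was 1 of 22 higher without overlap, against 1.36% of all features. At an unadjusted p under 0.05 3 were higher and 0 lower, against 4.91% and 10.8% of all features. The list level was 0.17 to 0.18 in day 21 replicates 2 to 5, above every day 7 animal. Those 4 animals were scanned apart from day 7. Day 21 replicate 1, the only day 21 animal scanned with day 7 animals, lay inside the day 7 range at -0.0049. The median was above 0 in 29 of 30 alternatives and was -0.0088 with dye-swap arrays alone. It was 0.04 within the third scan batch, and -0.02 in sprouting neurons (10 higher, 12 lower). Epha4, a receptor for repulsive ephrins, differed by 0.38 ± 0.16 and Nrp1, the semaphorin co-receptor, by 0.69 ± 0.31 (adjusted p = 0.296 and 0.318). Among 49 axon guidance genes 23 were higher and 26 lower, with a median of -0.03. Sema4g, a transmembrane semaphorin, differed by -0.69 ± 0.16 and Epha8 by -0.34 ± 0.12, both without overlap (adjusted p = 0.137 and 0.216), and another Sema4g probe differed by -0.05. Plxna4, a semaphorin receptor, differed by -0.37 ± 0.10 but was well above background on only 2 of 10 arrays at day 21.

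The 54 growth factors and receptors had a median of -0.09 (31 lower). Igf1, insulin-like growth factor 1, lay at 9.75, 10.20, 9.62, 9.35 and 9.23 at day 7 and at 9.07, 9.57, 9.23, 8.49 and 8.48 at day 21, a difference of -0.66 ± 0.25 with overlap. That difference was -0.34 without the last scan batch and -0.22 within the third, and the 3 other Igf1 probes differed by -0.35, -0.04 and -0.42. In the sprouting pools Igf1 differed by -1.75 ± 0.56. The difference between the cell types, 1.09 ± 0.47, had an adjusted p of 0.913 (limma). Egfr differed by -0.33 ± 0.11 (0.08 for its other probe).

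Genes of ribosomal proteins and of oxidative phosphorylation had medians below the -0.07 of all features, of which 59.5% were lower. With 75th percentile scaling they lay further below all features, whose median was then -0.06. Of 75 cytosolic ribosomal protein genes 55 were lower and 20 higher. Their median of -0.14 was -0.42 with 75th percentile scaling and -0.04 within the third scan batch. At an unadjusted p under 0.05 (limma) 13 of the 75 were lower and 1 higher, against 10.8% and 4.91% of all features. Rps20 lay at 14.41, 13.89, 13.42, 13.14 and 13.35 at day 7 and at 12.93, 13.10, 12.84, 12.61 and 13.17 at day 21, with 1 animal overlapping. The differences of Rps20, Rps15 and Rpl10a were -0.71 ± 0.23, -0.66 ± 0.20 and -0.51 ± 0.17 (adjusted p = 0.204, 0.183 and 0.211), and another Rps15 probe differed by 0.35. Of 67 genes of oxidative phosphorylation 49 were lower, 5 of them at an unadjusted p under 0.05 (limma). Their median of -0.12 was -0.41 with 75th percentile scaling and -0.01 within the third scan batch. Atp5mc3, a subunit of ATP synthase, differed by -0.48 ± 0.16 and Ndufv3 by -0.75 ± 0.24, both without overlap, and Ndufs5 by 0.36 ± 0.12 (-0.07 with 75th percentile scaling), the last 2 both subunits of complex I. Of 35 genes of glycolysis and hypoxia 27 were lower, with a median of -0.19 that was 0.01 without the last scan batch. Pfkp, a phosphofructokinase, differed by -0.51 ± 0.15 and Aldoc, an aldolase, by -0.28 ± 0.14.

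Protein quality control gave a mixed picture. The 37 proteasome genes had a median of -0.14 (29 lower), which was -0.43 with 75th percentile scaling and 0.02 within the third scan batch. Psmd8 was at -0.76 ± 0.26, Psmd12 at -0.36 ± 0.15 and Psme2, an interferon-induced activator, at -0.53 ± 0.23. The 41 heat shock and chaperone genes had a median of -0.02 (20 higher), with Dnajb5 at 0.48 ± 0.16 (-0.26 for its other probe), Stip1, which links Hsp70 and Hsp90, at 0.40 ± 0.14 and Hspa12a at -0.36 ± 0.12. In the list of endoplasmic reticulum stress 12 of 25 genes were higher and 13 lower, with a median of -0.03, and at an unadjusted p under 0.05 5 were higher and 1 lower, against 4.91% and 10.8% of all features. Hsp90b1, the chaperone GRP94, lay at 12.06, 11.33, 11.61, 11.82 and 11.74 at day 7 and at 12.11, 12.18, 12.48, 12.40 and 12.25 at day 21. Its days did not overlap, and the difference was 0.57 ± 0.15 (SE, adjusted p = 0.152). Atf4, the transcription factor of the integrated stress response, differed by 0.44 ± 0.14 without overlap and Creld2, an endoplasmic reticulum foldase, by 0.43 ± 0.16 (adjusted p = 0.202 and 0.250).

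Most stress and death genes were lower over all animals, with medians nearer to or above 0 without the last scan batch. Of 32 genes of oxidative stress and metallothioneins 26 were lower, with a median of -0.27 that was -0.08 without the last scan batch. Besides Nqo1, Hmox1, heme oxygenase 1, differed by -0.44 ± 0.18 with day 7 replicate 2 missing, and Gsr, glutathione reductase, by 0.34 ± 0.11 without overlap. Of 36 genes of apoptosis and p53 targets 25 were lower, with a median of -0.16 that was 0.10 without the last scan batch. Bcl2, which protects from apoptosis, differed by -0.43 ± 0.11 and Perp, a p53 target, by -0.42 ± 0.10, while Casp9, the initiator caspase, differed by 0.31 ± 0.11, each without overlap (adjusted p = 0.159, 0.139 and 0.249). Another Casp9 probe differed by -0.18, and the processed signal gave -0.03 for the probe used.

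The remaining lists had medians from -0.14 to 0.02. The 38 genes of cytokines and inflammation had a median of -0.14 (28 lower), with Cxcl2 at -0.27 ± 0.11, Ptges, a prostaglandin synthase, at -0.38 ± 0.15 and Ccl5 at 0.61 ± 0.24. The 47 genes of extracellular matrix and proteases had a median of -0.13 (32 lower), with Hapln4, a link protein of perineuronal nets, at -0.82 ± 0.23, Sparc at -0.59 ± 0.23 and Mmp2, a gelatinase, at -0.70 ± 0.29. The 33 genes of sterol synthesis and uptake had a median of -0.13 (23 lower), yet Insig1, the sensor that restrains sterol synthesis, was at 0.44 ± 0.14 and Idi1, an enzyme of the pathway, at 0.34 ± 0.15 (-0.03 with 75th percentile scaling), with Nr1h3, the receptor LXR alpha, at -0.51 ± 0.23. The 50 chromatin regulators had a median of -0.09 (28 lower), with Smarcb1 at -0.58 ± 0.16, Smarca2 at 1.06 ± 0.39, both subunits of the same remodelling complex, and Kdm6b, a histone demethylase, at -0.55 ± 0.19. Other probes differed by 0.55 for Kdm6b, by -0.43 for Idi1 and by 0.10, 0.02 and -0.42 for Insig1. The 52 genes of the cytoskeleton and axonal transport had a median of 0.02 (28 higher), -0.15 with 75th percentile scaling, with Cfl1, cofilin, at 0.44 ± 0.13, Dynll1, a dynein light chain, at -0.44 ± 0.14 and Pafah1b1, the dynein regulator LIS1, at -0.43 ± 0.19. None of these genes passed the adjusted test.

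**Figure D4:**
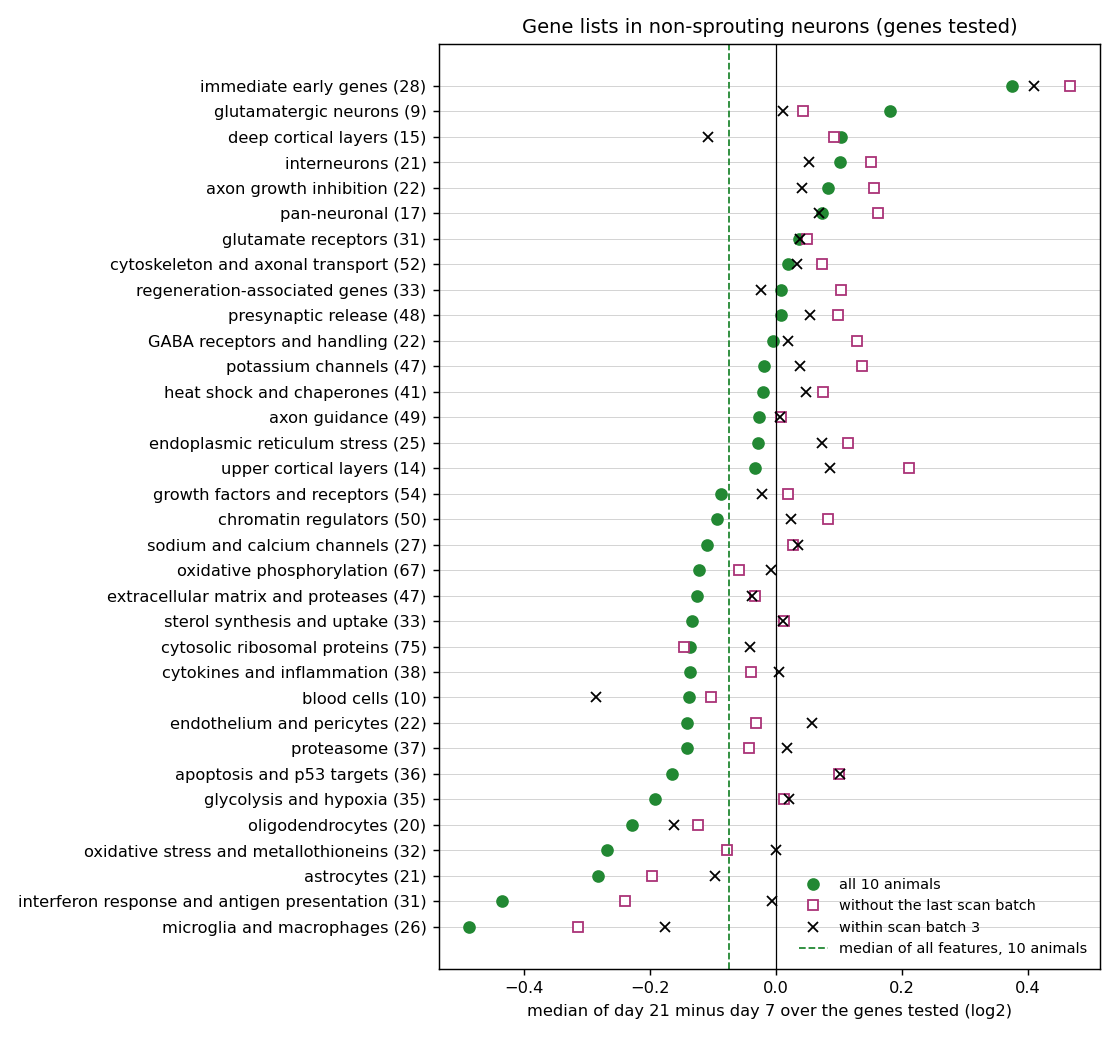
Median day 21 minus day 7 difference (log2, x axis) of 34 gene lists in non-sprouting neurons (y axis, genes tested in brackets), over all 10 animals (circles), without the last scan batch (squares) and within scan batch 3 (crosses). The immediate early genes lie at 0.38, 0.47 and 0.41, and 17 of the 18 lists below the dashed median of all features at -0.07 lie nearer to 0 without the last scan batch, all but the ribosomal proteins. The median of all features itself is -0.0042 without that batch.

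The same contrast in the sprouting neurons of the same 10 animals also called 0 features (0%) with limma, with 4771 (15.7%) at an unadjusted p under 0.05 and a smallest adjusted p of 0.153. The difference between the cell types in their day 21 minus day 7 contrast was tested as 1 value per animal. It called 0 of 30344 features (0%), with 1255 (4.14%) at an unadjusted p under 0.05 and a smallest adjusted p of 0.913, so no gene's time difference was shown to be particular to non-sprouting neurons. Both cell types of an animal shared arrays, so their values are given side by side only. The immediate early list had a median of 0.38 in non-sprouting and 0.31 in sprouting neurons, and the microglial list -0.49 and -0.71.

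Lingo1 differed by 0.55 ± 0.10 in non-sprouting and by 0.21 ± 0.12 in sprouting neurons, and the difference of 0.33 ± 0.10 had an adjusted p of 0.913. For Egr1 the values were 1.02 and 1.22, with a difference of -0.21 ± 0.10. Pclo was at 0.69 and -0.10, a difference of 0.79, and Cxcl10 at -0.91 and 0.20, a difference of -1.12. The genes with the smallest p for a more positive contrast in non-sprouting neurons were Atrx, Cd1d1, Suco, Wtip and Timeless, and those for a more negative contrast were Mfsd10, Gas8, Gosr2, Znrf1 and Ankrd42. Atrx, a chromatin remodeller, was at 0.87 (-0.23 within the third scan batch) and -0.03, and its level of 8.06 in day 7 replicate 2 was far below the 10.80 to 12.10 of the other animals. All 10 of these genes had an adjusted p of 0.913.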

How the data were processed

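Each of 10 rats had 1 forward and 1 dye-swap Agilent array. Images were quantified with Agilent Feature Extraction 9.1.3.1 per the file headers. The deposited mean and background intensity of each spot is linear and not normalized, and the deposited processed signal, an intensity that Feature Extraction had already corrected, was tried in its place. Quality flags per spot were used as deposited. No source used here names a genome build for the probes. A normalized table with 40 columns of per-sample values was not used.

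Of 43628 spots 2256 were controls. The channel with non-sprouting neurons was background-corrected in limma 3.58.1 (R 4.3.3, data.table version 1.17.8; normexp, offset 50), taken to log2 and quantile-normalized within each dye. Spots marked as outliers were dropped, saturated ones stayed in, spots of a probe were averaged, then both dyes of an animal. A probe entered the test if, on 1 day at least, 3 animals showed it well above background with both dyes, and if each day had 3 levels or more. This kept 33480 of 41012 probes, and the brightest on average stood for its gene, leaving 30344 features, 13693 of them named. Probes were named from the RefSeq genes of GRCr8, 10658 by accession, 4647 by symbol and 4381 by synonym or gene identifier, and 21326 stayed unnamed. The 34 lists held 1210 different genes, of which 1084 were tested. The number of arrays limits the precision.

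Days were compared with limma (lmFit, eBayes, 8 residual degrees of freedom before moderation), with p adjusted by Benjamini-Hochberg over all features, after checking the code on simulated data. The contrast of cell types used 1 value per animal. The lists and all members were chosen with earlier results of these data known. In each direction 15 genes were named by smallest p, since none passed 0.05, if the days did not overlap, the sign was shared by both dyes and the third scan batch, and no spot was saturated. Olfactory and vomeronasal receptors and provisional symbols (LOC, RGD, MGC) were left out. A few genes that these rules chose are not reported here. Each list gave its 3 members of smallest p and its defining markers, and the contrast of cell types 5 genes per direction. The other immediate early genes and the genes picked for the comparison with sprouting neurons beyond that were named after their values were seen. Alternatives changed background correction, scaling, filter, dye, scan batch, weights, replicate block and animals, and both settings that leave out animals standing apart were chosen after seeing the data. Replicate numbers did not pair the animals, which the labels put in separate cohorts. Scan batches rest on the scan date in the headers.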

Additional observations from a re-analysis of the deposited data

Results flagged for a closer look

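For each gene described with 5 levels in a day, and for each gene list, the highest and the lowest level were compared with their nearest neighbour. In 40 of 400 groups (10%) the gap of an animal exceeded Dixon's 95% limit, where chance gives about 1 in 20 for independent groups. All groups came from the same 10 animals and were not independent, so the 10% is a description only. Of the 40 groups, 36 were levels of genes (log2 intensity) and 4 were levels of gene lists. Among the day 7 animals, replicate 1 stood apart as the highest for Itgam (9.13), Nrp1 (9.02), Scgb1a1 (7.68) and the list of sterol synthesis and uptake (0.17). Among the day 7 animals, replicate 2 stood apart as the highest for Aqp4 (8.40), Arl4d (7.81) and Mmp2 (9.24) and as the lowest for Atrx (8.06), Homer1 (10.43), Syt1 (8.23) and the list of potassium channels (-0.26). Among the day 7 animals, replicate 5 stood apart as the highest for Cxcl2 (7.28), Egr3 (7.88), Fosl2 (7.66), Marchf6 (9.58) and Ptges (8.07). Among the day 21 animals, replicate 1 stood apart as the highest for Olig2 (7.69) and as the lowest for the list of axon growth inhibition (-0.0049). Among the day 21 animals, replicate 3 stood apart as the highest for Mpo (6.97). Among the day 21 animals, replicate 4 stood apart as the lowest for Grin1 (8.54), Smarcb1 (9.72), Sox10 (8.28) and Syp (9.27). Replicate 5 of day 21, from the last scan batch, accounted for 17 of the 40, as the highest for Abat (9.61), Arpp21 (12.89), Atf4 (13.64), Fos (9.67), Rbfox3 (12.23), S100a9 (7.85), Smarca2 (11.94), Suco (7.46), Syt1 (12.99) and the list of glutamatergic neurons (0.68) and as the lowest for Atp5mc3 (12.46), Bdnf (7.65), Dnajb5 (7.29), Gad1 (7.62), Gosr2 (9.03), Parp6 (8.47) and Snap25 (12.89).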

How the results depend on the processing

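No call at an adjusted p of 0.05 was the result with equal weights, and the count was also 0 in 25 of 30 alternatives. The exceptions were 2202 calls with array weights, 145 with 20 arrays entered singly, 1 without both day 21 animals of the last scan batch and 6 without the 3 animals that stood apart, the last 2 settings chosen after seeing the data. Leaving out 1 animal at a time gave 0 to 597 calls, the most without day 21 replicate 1. Without that animal no scan batch held both days, so day and scan date could not be told apart. With the replicate number as a block the count was 0 and 4195 features had an unadjusted p under 0.05. Animals of the same number were separate rats whose deviations correlated at -0.0335 to 0.184, so the numbers pair nothing. The difference between cell types gave 0 calls in every alternative run. Of the 168 genes described, 69 passed 0.05 in at least 1 alternative and the day 21 minus day 7 difference of 38 took the other sign in at least 1. With scan batch as a fixed block, or within the third batch alone, the differences of Aqp4 (-0.073), Arl4d (-0.25), Arpp21 (-0.24), Atrx (-0.23), Ccl5 (-0.15), Cldn5 (0.31), Gabrg1 (-0.14), Gas8 (0.12), Gfap (0.23), Gosr2 (0.16), Inhba (-0.19), Kcna5 (-0.075), Klf4 (0.38), Mbp (0.11), Mdga1 (-0.10), Nr1h3 (0.027), Olig2 (0.24), Per1 (0.084), Psme2 (0.042), Ptgs2 (0.46), Rbfox3 (-0.43), Rgs2 (0.33), Slc17a6 (0.058), Slc17a7 (-0.053) and Sv2b (-0.27) had the other sign. With 75th percentile scaling this held for Ankrd42 (-0.057), Arpp21 (-0.0063), Idi1 (-0.030), Jun (-0.21), Klf4 (0.026), Ndufs5 (-0.072), Pvalb (-0.0086), Rbfox3 (-0.29) and Uchl1 (-0.012). With array weights this held for Arl4d (-0.047), Arpp21 (-0.0034), Cldn5 (0.094), Gfap (0.18), Gosr2 (0.065), Klf4 (0.28), Mbp (0.40), Mdga1 (-0.0095), Ptgs2 (0.29) and Rbfox3 (-0.31). With forward arrays alone this held for Jund (0.023), Klf4 (0.31), Ptgs2 (0.033) and Rgs5 (0.028). With dye-swap arrays alone this held for Ankrd42 (-0.082), Dusp1 (-0.0089), Rbfox3 (-0.044), Rgs2 (0.026) and Sik1 (-0.078). With scan batch as a random block this held for Klf4 (0.10), Ptgs2 (0.0043), Rbfox3 (-0.078) and Rgs2 (0.021). With loess within and Aquantile between arrays this held for Klf4 (0.059). Without both day 21 animals of the last scan batch this held for Aqp4 (-0.19), Arl4d (-0.28), Cldn5 (0.12), Gosr2 (0.076), Klf4 (0.37), Mdga1 (-0.069), Ptgs2 (0.44), Rbfox3 (-0.20), Rgs2 (0.0089) and Slc17a7 (-0.023). Without the 3 animals that stood apart this held for Arl4d (-0.13), Atrx (-0.022), Ccn2 (0.029), Cldn5 (0.12), Gfap (0.17), Gosr2 (0.11), Klf4 (0.47), Mbp (0.31), Mdga1 (-0.047), Ptgs2 (0.38), Rbfox3 (-0.33) and Slc17a7 (-0.037). With the Feature Extraction processed signal it held for Ankrd42 (-0.17), Casp9 (-0.030) and Gad1 (-0.0066), and the cell type difference of Mfsd10 was 0.088. Over single left-out animals the range was -0.059 to 0.17 for Ankrd42, -0.033 to 0.26 for Dusp1, -0.035 to 0.35 for Gad1, -0.22 to 0.070 for Gosr2, -0.29 to 0.11 for Jund, -0.23 to 0.15 for Klf4, -0.56 to 0.079 for Mbp, -0.44 to 0.12 for Ptgs2, -0.16 to 0.17 for Rbfox3 and -0.064 to 0.37 for Sik1. The cause of these changes was not tested. Dim probes, 5 animals per day and a scan date that follows the day limit the precision.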

Other observations

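Olfactory receptor genes, a family chosen after its values were seen, were lower at day 21 in 671 of 903 measured features, with a median difference of -0.23, beside 59.5% of all features lower and a median of -0.07. The median was -0.27 without the last scan batch and -0.20 within the third scan batch. The family level in the day 21 animals was 0.013, -0.29, -0.15, -0.18 and -0.15 in replicates 1 to 5, and in the day 7 animals 0.036, 0.0028, 0.14, 0.081 and 0.26. Day 21 replicate 1 lay inside the day 7 range and the other 4 lay below it. The level of all features was -0.14 and -0.16 in day 21 replicates 4 and 5, near that of the family, and between -0.02 and 0.05 in the other 8 animals. The median level of these features was 7.25 against 7.51 for all features. These genes encode odorant receptors of the nasal epithelium, and whether their probes measured receptor transcripts was not tested.

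Ordered by mean level into 4 sets of 7586 features, the median differences from the dimmest to the brightest set were -0.04, 0.01, -0.20 and -0.11. Without the last scan batch the 4 medians lay between -0.02 and 0.02. Without the 3 animals that stood apart limma called 6 features, all higher at day 21, of which Fos was the only one with a gene name here, and without both day 21 animals of the last scan batch it called 1 unnamed probe, A_44_P211970, at 1.16 with an adjusted p of 0.00919.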
